A study of Mus musculus with 16 samples.

Results

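Toll-like receptors (TLRs) and the proteins that let them signal were followed through early B cell development in the fetus and the adult. The set held 10 genes, chosen by name as TLR genes, the adaptor Myd88, its kinase Irak4 and the chaperone Unc93b1, out of 22401 genes or unnamed transcripts tested. All 10 had a probe on the array (12 probes), and 9 could be tested. Tlr3 was left out of the tests because each of its 2 probes was well above background on only 1 of 16 arrays. The cells were B-lineage fractions of BALB/c mice with no treatment or engineered allele. The 4 groups were Fr.B/C and Fr.A of day 16 fetal liver and the same fractions of adult bone marrow, with 4 dual-colour Agilent arrays each. Fr.A and Fr.B/C are successive fractions in the Hardy scheme of B cell development, which calls them pre-pro-B and pro-B cells. Each fetal sort pooled the livers of a litter at day 16 of gestation, 8 embryos on average, and each adult sort pooled bone marrow of 16 female mice. Each sort gave 1 sample of each fraction, so every array stands for a pool of animals and not for 1 animal. Amplified RNA of each sample was hybridised beside a reference made of RNA from 6 cell lines.

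TLRs recognise conserved microbial molecules. Tlr1, Tlr2, Tlr4 and Tlr6 act at the cell surface, Tlr2 pairing with Tlr1 or Tlr6 for bacterial lipopeptides and Tlr4 sensing lipopolysaccharide. Tlr3, Tlr7 and Tlr9 sense nucleic acids inside endosomes, where Unc93b1 delivers them. All but Tlr3 signal through Myd88, which assembles a complex with Irak4 and leads to NF-kB and interferon regulatory factors. Mature mouse B cells respond to several TLR ligands, and haematopoietic progenitors are also known to express TLRs.

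Promoter sequence was set out for Tlr1 and Tlr6, which lie next to each other on chromosome 5 with 0 other protein-coding genes between them, and for Tlr2, the partner of both. The RefSeq promoter table (GRCm38.p6) held 7 of the 10 genes. The 250 bases before the first listed start are given on the gene's strand, for Tlr1 at chr5:64933559-64933808, for Tlr6 at chr5:64959167-64959416 and for Tlr2 at chr3:83841609-83841858, all minus strand. Capitals mark GGAAGT, the core of sites bound by Ets factors such as PU.1, or the interferon response element (GAAA, a spacer of 2 bases and GAAA), both sought on either strand. In the Tlr6 run both stretches of capitals read on the opposite strand, and the first holds 2 overlapping interferon response elements.
Tlr1: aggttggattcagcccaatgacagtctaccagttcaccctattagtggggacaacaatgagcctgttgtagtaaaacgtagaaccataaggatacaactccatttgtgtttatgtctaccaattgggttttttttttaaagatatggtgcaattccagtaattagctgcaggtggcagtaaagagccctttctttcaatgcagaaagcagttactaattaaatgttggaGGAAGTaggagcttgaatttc
Tlr6: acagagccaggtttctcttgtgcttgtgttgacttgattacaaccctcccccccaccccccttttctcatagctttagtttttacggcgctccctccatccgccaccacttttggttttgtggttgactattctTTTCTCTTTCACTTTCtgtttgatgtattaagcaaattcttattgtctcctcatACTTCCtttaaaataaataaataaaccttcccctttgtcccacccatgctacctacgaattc
Tlr2: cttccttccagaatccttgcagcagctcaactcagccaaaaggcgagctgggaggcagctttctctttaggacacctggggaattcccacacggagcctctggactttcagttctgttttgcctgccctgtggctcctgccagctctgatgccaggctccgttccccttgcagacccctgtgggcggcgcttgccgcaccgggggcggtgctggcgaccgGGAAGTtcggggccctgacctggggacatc

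All 3 runs hold 1 match to GGAAGT, which stands in 5401 of 27025 promoters of the same length. The Tlr1 match is part of the longer PU.1 word GAGGAAGT, found in 2.44% of promoters and in none of the other 6 promoters of the set. The interferon response element stood in the promoters of Tlr6 and Myd88, and in 3.04% of all promoters. CCCNNGGG, the core of sites of the B-lineage factor EBF1, matched none of the 7 promoters and 11.7% of all. Tlr1 and Tlr6 each have 2 starts in the table, and the words were sought before the first alone. These matches describe letters in the windows and were not tested as binding sites.

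Across the arrays 52.9% to 68.3% of probes were well above background in the sample channel. Markers of B progenitors were present: all 8 measured were above background in every group. In each tissue 6 of them were higher and 1 lower in Fr.B/C than in Fr.A. Over all genes 10% were higher and 12.7% lower in fetal liver, and 13.5% and 18.9% in bone marrow. Within a group, arrays 1 and 2 and arrays 3 and 4 deviated together from the group mean more than other pairs did (residual r from -0.05 to 0.77, against -0.86 to -0.53). For that reason each result is also given with these arrays averaged, 2 values a group, where that ends its call. Fetal liver and bone marrow arrays were scanned on separate dates, so tissue and scan date cannot be told apart. In such bulk samples fewer cells of a type and less RNA per cell cannot be told apart either.

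Calls rest on limma with adjusted p under 0.05 over the 22401 tested. In Fr.A, fetal liver was higher than bone marrow for 1 of the 9 genes and lower for 5, where 12.2% of all genes were higher and 17.4% lower (29.5% either way). In Fr.B/C, fetal liver was higher for 0 and lower for 4, where 13.9% of all genes were higher and 14.6% lower (28.5% either way); at an unadjusted p under 0.05 the counts were 0 and 5. From Fr.A to Fr.B/C in bone marrow 4 were higher and 3 lower (13.5% and 18.9% of all genes, 32.3% either way). In fetal liver this step raised 1 and lowered 2 (10% and 12.7% of all genes, 22.8% either way). The fetal step minus the adult step was positive for 0 and negative for 3 (4.54% and 2.98% of all genes, 7.52% either way), and at an unadjusted p under 0.05 for 1 and 3. The median change of the 9 genes was -0.39 in the tissue comparison of Fr.A and -0.29 in that of Fr.B/C, against -0.02 and 0.01 over all genes. The plot of changes shows that the step passed in both tissues for Tlr1, Tlr4 and Tlr7, and that Tlr2, Tlr6 and Unc93b1 were lower in fetal liver in both fractions. The tissue comparisons and the steps use the same 16 arrays and are not independent of each other.

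**Figure D1:**
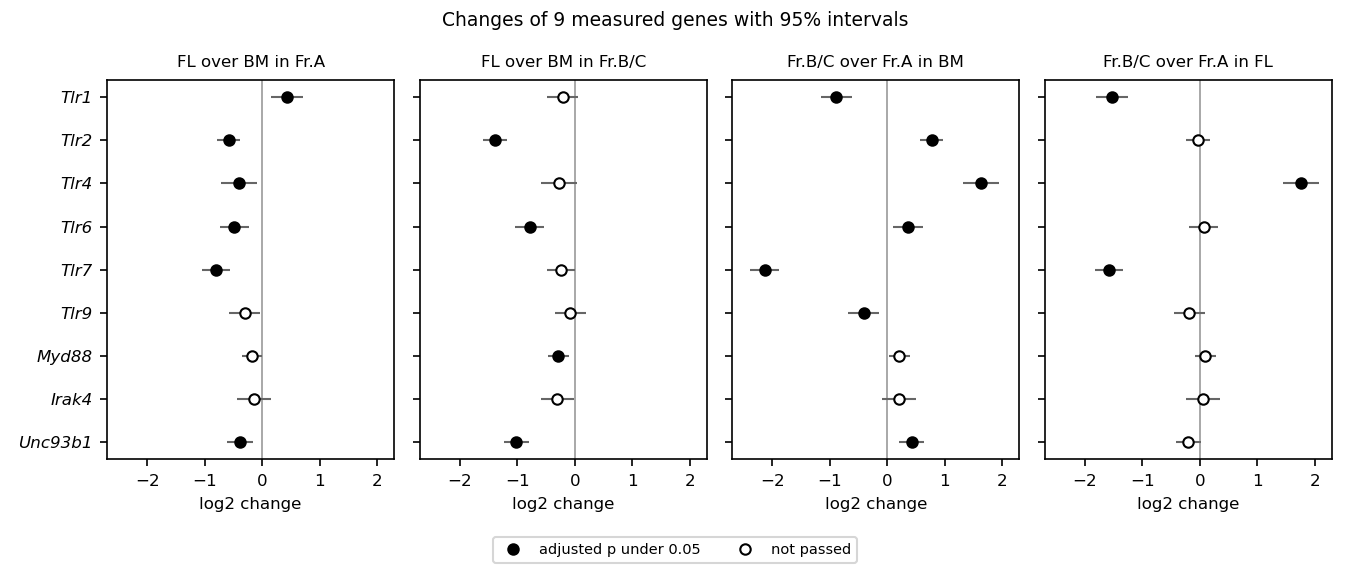
Log2 change with its 95% interval (x axis) of the 9 tested genes (y axis) in 4 comparisons, from limma; filled points passed at an adjusted p under 0.05 and open points did not. Tlr4 lies to the right and Tlr1 and Tlr7 to the left of 0 in both steps from Fr.A to Fr.B/C.

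Tlr4, the lipopolysaccharide receptor, was higher in Fr.B/C than in Fr.A of both tissues. Its log2 ratio of sample over reference was 0.94, 0.72, 1.22 and 0.94 on the fetal liver Fr.B/C arrays, against -0.46, -1.05, -0.84 and -0.89 in fetal liver Fr.A. In bone marrow it was 1.00, 1.09, 1.38 and 1.45 in Fr.B/C, against -0.62, -0.44, -0.39 and -0.15 in Fr.A. Every Fr.B/C array lay above every Fr.A array of its tissue, and the fractions of the other tissue fell in the same order. The log2 change was 1.76 ± 0.15 (SE; 95% interval 1.45 to 2.07, adjusted p = 2.55e-07) in fetal liver and 1.63 ± 0.15 (1.32 to 1.94, adjusted p = 4.44e-07) in bone marrow, or 3.40-fold and 3.10-fold. The steps of the tissues differed by 0.13 ± 0.21 (95% interval -0.31 to 0.57, adjusted p = 0.776). Within single scan dates the fetal liver step was 1.58 and 1.95, and the bone marrow step 1.60 to 1.76. Tlr4 was lower in fetal liver Fr.A than in bone marrow Fr.A by -0.41 ± 0.15 (adjusted p = 0.0462). That small difference was fragile: the adjusted p was 0.183 with arrays averaged, 0.0638 with an offset of 0, 0.0906 with scan date as a random block and 0.0681 on the authors' deposited table. It also missed the threshold without any of 10 single arrays (fetal liver Fr.A 2, 3 or 4, fetal liver Fr.B/C 1 or 4, and, in bone marrow, Fr.A 2, 3 or 4 or Fr.B/C 2 or 3), at adjusted p from 0.0536 to 0.155. In Fr.B/C the tissue difference was -0.28 ± 0.15 and did not pass (adjusted p = 0.179; with median centring it was -0.58, adjusted p = 0.0218).

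Tlr1, the partner of Tlr2 for triacylated lipopeptides, moved the opposite way. Its log2 ratio was 0.95, 1.06, 0.55 and 0.89 in fetal liver Fr.B/C, against 2.29, 2.28, 2.44 and 2.54 in fetal liver Fr.A. In bone marrow it was 0.97, 1.15, 1.04 and 1.12 in Fr.B/C, against 1.95, 2.36, 1.82 and 1.68 in Fr.A. No Fr.B/C array of either tissue reached the lowest Fr.A array. The log2 change from Fr.A to Fr.B/C was -1.53 ± 0.13 (2.88-fold lower, adjusted p = 3.06e-07) in fetal liver and -0.89 ± 0.13 (1.85-fold lower, adjusted p = 6.63e-05) in bone marrow. The fall was larger in fetal liver by -0.64 ± 0.18 (adjusted p = 0.044), but that difference had an adjusted p of 0.457 with arrays averaged and 0.0782 with an offset of 0. It missed the threshold without any of 12 single arrays, at adjusted p from 0.0525 to 0.0966. These were bone marrow Fr.A 1, 3 or 4, fetal liver Fr.A 1, 3 or 4, fetal liver Fr.B/C 3 or 4 and any bone marrow Fr.B/C array. Fetal liver Fr.A was above bone marrow Fr.A by 0.43 ± 0.13 (adjusted p = 0.019), with overlapping arrays. That call was lost with arrays averaged (adjusted p = 0.168), with median centring (0.23, adjusted p = 0.356) and without bone marrow Fr.A 3 or 4 or fetal liver Fr.A 3 or 4 (adjusted p from 0.0501 to 0.0711). In Fr.B/C the tissues differed by -0.21 ± 0.13 (adjusted p = 0.251).

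Tlr2, which pairs with Tlr1 or Tlr6, separated the tissues. Its log2 ratio was 0.96, 0.90, 1.05 and 1.07 in fetal liver Fr.B/C, against 2.21, 2.27, 2.41 and 2.66 in bone marrow Fr.B/C. In Fr.A it was 1.04, 1.09, 0.96 and 1.03 in fetal liver, against 1.56, 1.62, 1.76 and 1.52 in bone marrow. All 8 fetal arrays lay below all 8 adult arrays. Fetal liver was lower by -1.39 ± 0.10 in Fr.B/C (2.62-fold, adjusted p = 3.04e-08) and by -0.58 ± 0.10 in Fr.A (1.497-fold, adjusted p = 0.000261; 0.102 on the Cy3 arrays). From Fr.A to Fr.B/C the ratio changed by -0.04 ± 0.10 in fetal liver (95% interval -0.24 to 0.17, adjusted p = 0.855) and rose by 0.77 ± 0.10 in bone marrow (adjusted p = 1.35e-05). The difference between these steps was -0.81 ± 0.14 (adjusted p = 0.00169), and had an adjusted p of 0.172 with arrays averaged and of 0.234 and 0.336 on the arrays of a single dye. In bone marrow the step was 0.65 to 1.14 on the 3 scan dates that held both fractions, and in fetal liver it was -0.13 and 0.06 on its 2 dates.

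Tlr6, the other partner of Tlr2, for diacylated lipopeptides, also lay lower in the fetus. Its log2 ratio was 0.58, 0.82, 0.65 and 0.54 in fetal liver Fr.B/C, against 1.05, 1.40, 1.59 and 1.67 in bone marrow Fr.B/C. In Fr.A it was 0.70, 0.69, 0.45 and 0.49 in fetal liver, against 0.88, 1.26, 1.03 and 1.103 in bone marrow. Within each fraction the fetal arrays lay below the adult ones. Fetal liver was lower by -0.78 ± 0.12 in Fr.B/C (1.72-fold, adjusted p = 0.00016; 0.0701 on the Cy5 arrays) and by -0.49 ± 0.12 in Fr.A (1.40-fold, adjusted p = 0.00585; 0.101 with arrays averaged). From Fr.A to Fr.B/C the ratio changed by 0.06 ± 0.12 in fetal liver (adjusted p = 0.774) and by 0.36 ± 0.12 in bone marrow (adjusted p = 0.0306). The bone marrow step had overlapping arrays and an adjusted p of 0.195 with arrays averaged and 0.0584 with an offset of 0. It missed the threshold without bone marrow Fr.A 1, 3 or 4 or Fr.B/C 3 or 4 (adjusted p from 0.0525 to 0.112). The log2 ratios of the neighbours Tlr1 and Tlr6 correlated over the 16 arrays at r = -0.26, while Tlr2 and Tlr6 correlated at 0.92 and Tlr1 and Tlr4 at -0.94. These correlations are descriptions over arrays that share 4 groups.

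**Figure D2:**
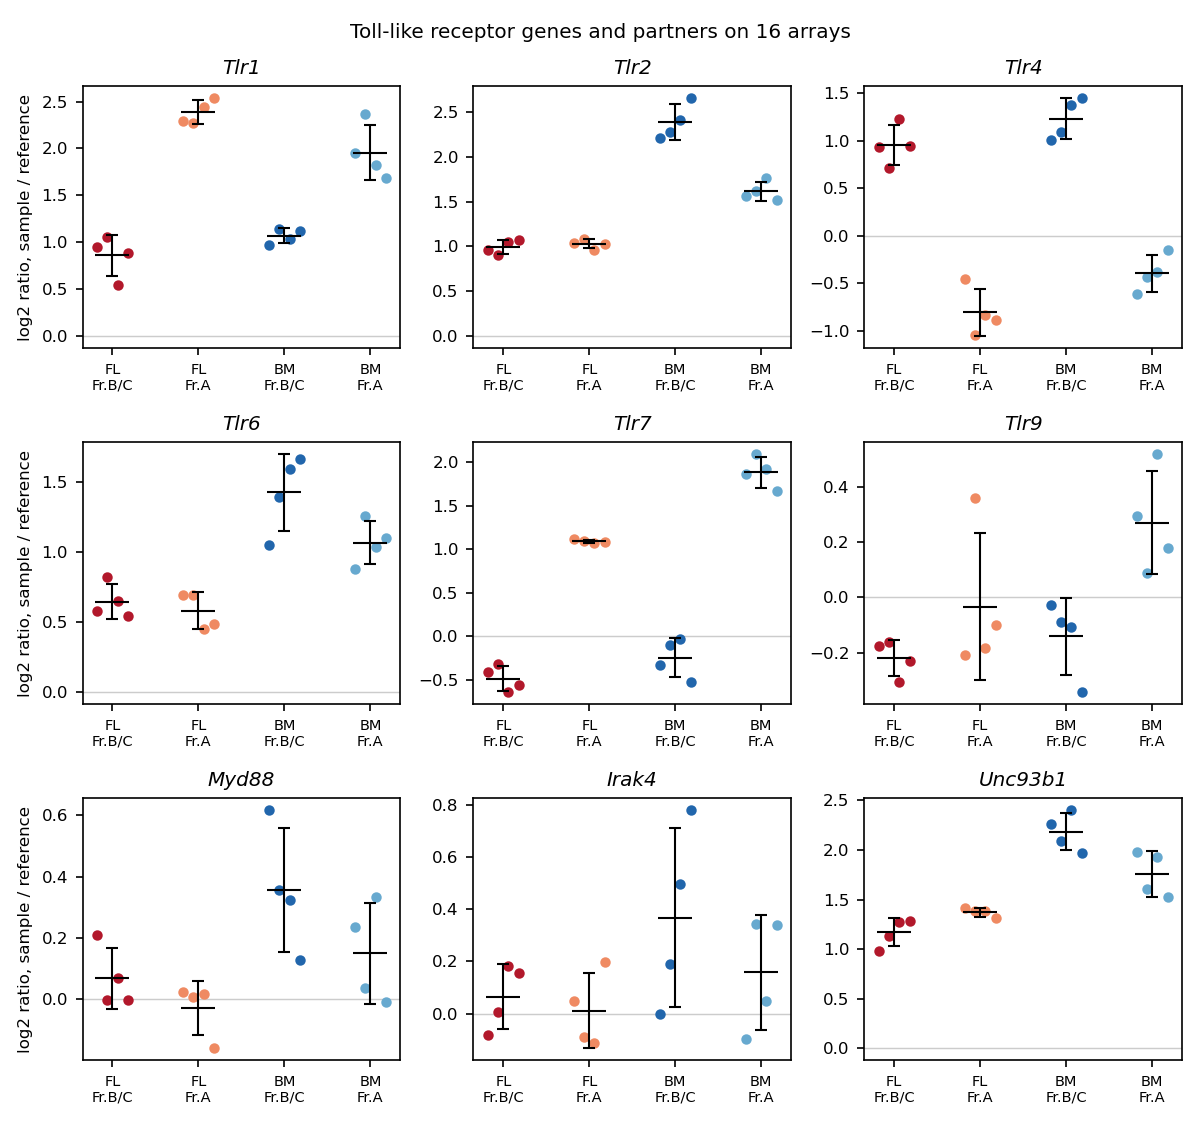
Log2 ratio of sample over reference (y axis) of the 9 tested genes on 16 arrays, grouped along the x axis; points are arrays and bars are the mean and SD of 4. Tlr4 is high and Tlr1 and Tlr7 are low in Fr.B/C of both tissues, and for Tlr2 all 8 fetal arrays lie below all 8 adult ones.

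Other cell types whose genes could be in these sorts also differed between the groups. The summed sample signal of the 12 granulocyte and monocyte markers was 9091 to 20680 in fetal liver Fr.B/C and 52880 to 73590 in fetal liver Fr.A, against 65680 to 99890 in bone marrow Fr.B/C and 145700 to 255900 in bone marrow Fr.A. Of the 12, fetal liver was lower for 6 in Fr.B/C (14.6% of all genes), and lower for 7 and higher for 1 in Fr.A (17.4% and 12.2% of all genes). The sum of 7 basophil and mast cell markers was 653 to 736 in fetal liver Fr.B/C and 775 to 1010 in fetal liver Fr.A. In bone marrow it was 1279 to 1903 in Fr.B/C and 1499 to 1710 in Fr.A. Of the 7, 4 were lower in fetal liver in each fraction (14.6% of all genes in Fr.B/C and 17.4% in Fr.A). Mcpt8, a basophil protease, was above background on no fetal array, and Prss34, another, was among the genes most like Tlr2. In the bone marrow step, where Tlr2 rose, 1 of the 7 was higher (Prss34), 1 was lower and 5, Mcpt8 among them, did not pass. Erythroid markers ran the other way, with sums of 5627 to 26080 over the fetal arrays and 1380 to 2612 over the adult ones. Of the 9 tested, 8 were higher in fetal liver in each fraction (13.9% of all genes in Fr.B/C and 12.2% in Fr.A). The part of these markers in the tissue differences of Tlr2, Tlr6 and Unc93b1 was not tested.

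Tlr7, an endosomal receptor for single-stranded RNA encoded on the X chromosome, was lower in Fr.B/C than in Fr.A of both tissues. Its log2 ratio was -0.41, -0.33, -0.64 and -0.57 in fetal liver Fr.B/C, against 1.11, 1.097, 1.07 and 1.08 in fetal liver Fr.A. In bone marrow it was -0.33, -0.10, -0.03 and -0.52 in Fr.B/C, against 1.87, 2.10, 1.93 and 1.67 in Fr.A. All Fr.B/C arrays lay below all Fr.A arrays, and bone marrow Fr.A lay above fetal liver Fr.A without overlap. In fetal liver the probe was not well above background on any Fr.B/C array, and its mean sample channel was 2.78-fold higher in Fr.A. The log2 change from Fr.A to Fr.B/C was -1.58 ± 0.12 there (adjusted p = 7.11e-08). In bone marrow it was -2.13 ± 0.12 (4.39-fold lower, adjusted p = 1.88e-09).

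The size of the Tlr7 fall depended on the background correction, since the offset of 50 compresses dim signals. With an offset of 0 the step was -3.05 in fetal liver and -3.20 in bone marrow, and on the authors' deposited table it was -3.35 and -3.54, or 10.2-fold and 11.6-fold. The difference between the steps was 0.56 ± 0.16 and did not pass (adjusted p = 0.0517). Blocking on replicate number made it pass (adjusted p = 0.0156; 0.0079 with the sort as a random block), as did scan date as a random block (0.014) and leaving out fetal liver Fr.B/C 3, Fr.A 4 of bone marrow or Fr.B/C 2 or 3 of bone marrow (adjusted p from 0.0339 to 0.0481). It was 0.15 with an offset of 0 (adjusted p = 0.847), and its adjusted p was 0.358 with arrays averaged. Fetal liver was lower than bone marrow by -0.80 ± 0.12 in Fr.A (1.74-fold, adjusted p = 8.81e-05), a call kept with arrays averaged (adjusted p = 0.00954). In Fr.B/C the tissue difference was -0.24 ± 0.12 (95% interval -0.49 to 0.01, adjusted p = 0.138) and did not pass, with overlapping arrays. It was -0.77 with an offset of 0 (adjusted p = 0.0233), -0.84 on the authors' deposited table (adjusted p = 0.00749) and -0.34 without bone marrow Fr.B/C 4 (adjusted p = 0.0378).

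**Figure D3:**
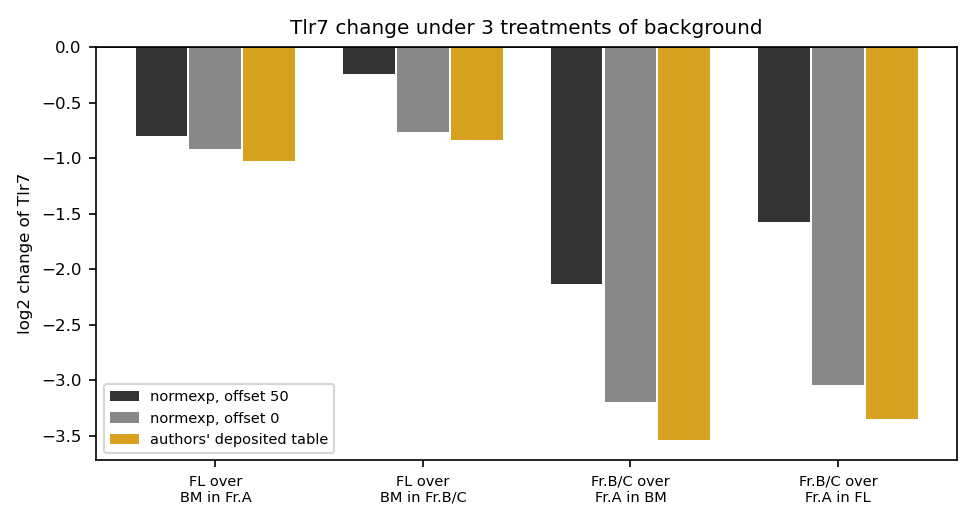
Log2 change of Tlr7 (y axis) in 4 comparisons (x axis), from ratios with normexp and an offset of 50 (dark), with an offset of 0 (grey) and from the authors' deposited table (yellow). All changes are below 0, and the changes from Fr.A to Fr.B/C are -1.58 in fetal liver and -2.13 in bone marrow with the offset of 50, and -3.35 in fetal liver and -3.54 in bone marrow on the authors' deposited table; Tlr7 was not well above background in fetal liver Fr.B/C.

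Tlr9, the endosomal receptor for unmethylated CpG DNA, changed little. Its log2 ratio was -0.18, -0.16, -0.31 and -0.23 in fetal liver Fr.B/C, against -0.21, 0.36, -0.18 and -0.10 in fetal liver Fr.A. In bone marrow it was -0.03, -0.09, -0.11 and -0.34 in Fr.B/C, against 0.29, 0.09, 0.52 and 0.18 in Fr.A. Fetal liver Fr.A array 2 stood above the other fetal arrays, and the bone marrow fractions did not overlap. From Fr.A to Fr.B/C Tlr9 changed by -0.19 ± 0.13 in fetal liver (adjusted p = 0.352) and fell by 0.41 ± 0.13 on the log2 scale in bone marrow (adjusted p = 0.0209). The bone marrow call was lost with arrays averaged (adjusted p = 0.082), with median centring (0.309) and without Fr.A 3 or Fr.B/C 4 (adjusted p = 0.0792 and 0.0736). Fetal liver differed from bone marrow by -0.30 ± 0.13 in Fr.A (adjusted p = 0.0875), which passed without fetal liver Fr.A 2 (-0.45, adjusted p = 0.00418), and by -0.08 ± 0.13 in Fr.B/C (95% interval -0.35 to 0.19, adjusted p = 0.693). Tlr3, the receptor for double-stranded RNA, had mean signals of 55.69 to 144.5 in the sample channel over both probes and all arrays.

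Plasmacytoid dendritic cells are a known source of Tlr7 and Tlr9, and share surface markers with Fr.A, so their genes were followed beside them. The summed sample signal of 13 markers was 18200 to 22110 in fetal liver Fr.B/C and 39560 to 43840 in fetal liver Fr.A. In bone marrow it was 24530 to 26010 in Fr.B/C and 38260 to 42320 in Fr.A. Of the 13, 9 were lower and 2 higher in Fr.B/C of fetal liver (12.7% and 10% of all genes), and 8 lower and 2 higher in Fr.B/C of bone marrow (18.9% and 13.5%). The higher ones included Spib, which B-lineage cells also express. Of the 14 such markers with a probe, 11 were above background on at least 3 arrays of fetal liver Fr.B/C, and 12 in bone marrow Fr.B/C. Siglech, a defining marker of these cells, was above background on no Fr.B/C array. Between tissues, fetal liver was higher for 6 of the 13 and lower for 3 in Fr.A (12.2% and 17.4% of all genes). In Fr.B/C it was higher for 3 and lower for 5 (13.9% and 14.6%). In Fr.A Siglech was higher in fetal liver (0.82 ± 0.13, adjusted p = 0.000174) and Irf8 lower (-0.70 ± 0.08, adjusted p = 1.25e-05). Markers of macrophages and conventional dendritic cells summed to 1492 to 1596 in fetal liver Fr.B/C and 2676 to 3441 in fetal liver Fr.A, and to 1268 to 1501 in bone marrow Fr.B/C and 2358 to 2888 in bone marrow Fr.A. Sums of NK cell markers were also lower in Fr.B/C, at 869 to 884 against 1995 to 2254 in fetal liver and 1820 to 2423 against 8136 to 12030 in bone marrow. Sums are carried by the brightest genes. Of 9 NK markers, 3 passed as lower in the fetal step and 7 in the adult step (12.7% and 18.9% of all genes). Of 12 macrophage and conventional dendritic cell markers, 5 and 4 did. In both lists 0 passed as higher. The part of these markers in the falls of Tlr7, Tlr9 and Tlr1 was not tested.

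Unc93b1, the chaperone of the endosomal receptors, separated the tissues like Tlr2. Its log2 ratio was 0.98, 1.14, 1.27 and 1.29 in fetal liver Fr.B/C, against 2.27, 2.09, 2.40 and 1.97 in bone marrow Fr.B/C. In Fr.A it was 1.41, 1.38, 1.38 and 1.31 in fetal liver, against 1.98, 1.60, 1.92 and 1.52 in bone marrow. The tissues did not overlap in either fraction. Fetal liver was lower by -1.01 ± 0.10 in Fr.B/C (2.02-fold, adjusted p = 2.7e-06) and by -0.39 ± 0.10 in Fr.A (1.31-fold, adjusted p = 0.00997; 0.0807 with arrays averaged, 0.148 with median centring and 0.419 on the Cy3 arrays). From Fr.A to Fr.B/C the ratio changed by -0.20 ± 0.10 in fetal liver (adjusted p = 0.195) and by 0.43 ± 0.10 in bone marrow, where the arrays overlapped at 1.97 and 1.98 (adjusted p = 0.00468; 0.0849 with median centring, and 0.131 and 0.0695 on the Cy5 and Cy3 arrays). The steps differed by -0.63 ± 0.15 (adjusted p = 0.0157), which was lost with arrays averaged (adjusted p = 0.236), with an offset of 0 (0.0848) and on the authors' deposited table (0.0683). The correlation of Unc93b1 with Tlr2 over the 16 arrays was 0.91.

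Myd88 and Irak4, the adaptor and kinase shared by most TLRs and by the IL-1 and IL-18 receptors, differed little between groups. The log2 ratio of Myd88 was 0.21, 0.00, 0.07 and 0.00 in fetal liver Fr.B/C, against 0.62, 0.36, 0.32 and 0.13 in bone marrow Fr.B/C. In Fr.A it was 0.02, 0.01, 0.02 and -0.16 in fetal liver, against 0.24, 0.04, 0.34 and -0.01 in bone marrow. Neighbouring groups overlapped throughout. Fetal liver Fr.B/C was lower than bone marrow Fr.B/C by -0.29 ± 0.09 (1.22-fold, adjusted p = 0.0188). That call was lost with arrays averaged (adjusted p = 0.205), with an offset of 0 (0.0933), on the authors' deposited table (0.0937) and without bone marrow Fr.B/C 1 or 2 or fetal liver Fr.B/C 3 (adjusted p from 0.0595 to 0.0792). In Fr.A the tissues differed by -0.18 ± 0.09 (adjusted p = 0.139). The step from Fr.A to Fr.B/C was 0.10 ± 0.09 in fetal liver (adjusted p = 0.496) and 0.21 ± 0.09 in bone marrow (adjusted p = 0.0779). The bone marrow step passed with the sort as a random replicate block (adjusted p = 0.0342) and without Fr.B/C 4 (adjusted p = 0.0437).

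Irak4 had log2 ratios from -0.08 to 0.18 in fetal liver Fr.B/C and from -0.11 to 0.20 in fetal liver Fr.A, against 0.00 to 0.78 in bone marrow Fr.B/C and -0.10 to 0.34 in bone marrow Fr.A. It passed in none of the comparisons of 2 groups, with changes from -0.30 ± 0.14 (adjusted p = 0.119) to 0.21 ± 0.14 (adjusted p = 0.288) and, at an unadjusted p, 0.0449 in the tissue comparison of Fr.B/C. That comparison passed with median centring alone (-0.55, adjusted p = 0.00989). Its second probe was well above background on 2 of 4 arrays in each bone marrow group and on 0 in fetal liver, and was not tested.

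The levels of each gene were ordered over the 4 groups. For Tlr4 both Fr.B/C groups, with bone marrow above fetal liver, stood over both Fr.A groups in the same order of tissues, and only the fractions did not overlap. For Tlr1 the Fr.A groups were on top, fetal liver first, and the Fr.B/C groups below, fetal liver last, and again only the fractions were parted. Tlr2 and Unc93b1 ran from bone marrow Fr.B/C through bone marrow Fr.A and fetal liver Fr.A to fetal liver Fr.B/C. For Tlr2 all neighbours but the fetal pair were apart, and for Unc93b1 all but the bone marrow pair. For Tlr7 both Fr.A groups lay over both Fr.B/C groups, each time with the adult group above the fetal one, with an overlap only between the Fr.B/C groups. Among 2096 genes whose group means ranged by at least 1 (log2), those most like each receptor by Pearson r over 16 arrays were Gpr34 for Tlr1 (0.97), Hvcn1, a proton channel, and Prss34 for Tlr2 (0.99 and 0.98), Csgalnact1 for Tlr4 (0.98), Trim21 for Tlr6 (0.95), Tnni1, Fut7 and Bcl2 for Tlr7 (0.99 each) and Elfn1 for Unc93b1 (0.96). Tlr9 and Myd88 had weaker matches, with Cpne5 at 0.87 and Tpd52 at 0.85. The arrays share 4 groups, so high values are common among genes that vary between groups.

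Genes that work with TLRs were described from a list of 17, most of them co-receptors, chaperones or proteases. The list also held Hmgb1, Slc15a4 and Ap3b1. In fetal liver Fr.B/C 1 was higher and 7 were lower than in fetal liver Fr.A, and in bone marrow Fr.B/C 3 were higher and 6 lower than in Fr.A (10% and 12.7% of all genes in the fetal step, 13.5% and 18.9% in the adult step). Between tissues, fetal liver was higher for 5 and lower for 3 in Fr.B/C (13.9% and 14.6% of all genes) and higher for 3 and lower for 2 in Fr.A (12.2% and 17.4% of all genes). The median change of the list lay between -0.19 and 0.11 in these 4 comparisons. Ly86 (MD-1), which binds the TLR-like surface protein Cd180, fell by 3.46 ± 0.17 on the log2 scale from Fr.A to Fr.B/C in fetal liver (adjusted p = 7.49e-10) and by 2.204 ± 0.17 in bone marrow (adjusted p = 7.53e-08). It was also lower in fetal liver than in bone marrow, by -2.92 ± 0.17 in Fr.B/C and -1.67 ± 0.17 in Fr.A. Cd180 changed by -0.53 ± 0.09 in the fetal step (adjusted p = 0.000327) and by -0.11 ± 0.09 in the adult step (adjusted p = 0.387). On the authors' deposited table these steps were -1.58 and -0.52.

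None of the Tlr4 co-receptors Ly96, Cd14 and Lbp passed as higher in Fr.B/C. Ly96 (MD-2), which binds lipopolysaccharide with Tlr4, changed by 0.34 ± 0.13 in the fetal step (adjusted p = 0.065) and by 0.32 ± 0.13 in the adult step (adjusted p = 0.0607), and was higher in fetal liver in Fr.B/C (0.62 ± 0.13, adjusted p = 0.00167) and in Fr.A (0.60 ± 0.13, adjusted p = 0.00183); both of these were lost with arrays averaged (adjusted p = 0.0805 and 0.0794). Cd14, which hands lipopolysaccharide to Ly96, fell by 0.54 ± 0.09 on the log2 scale in the fetal step (adjusted p = 0.00033; 0.0547 with arrays averaged) and by 0.28 ± 0.09 in the adult step (adjusted p = 0.0253; 0.234 with arrays averaged). Lbp, which delivers lipopolysaccharide to Cd14, changed by -0.12 and -0.10 and passed in neither. Cd36, a scavenger receptor that works with Tlr2 and Tlr6, rose by 1.34 ± 0.13 in the fetal step (adjusted p = 2.15e-06) and by 0.59 ± 0.13 in the adult step (adjusted p = 0.0029; 0.0541 with arrays averaged). Among the proteases that trim endosomal TLRs, Ctsl was higher in fetal liver by 2.21 ± 0.15 in Fr.B/C and 1.53 ± 0.15 in Fr.A, and Ctss was lower by -1.78 ± 0.16 and -1.63 ± 0.16. Both fell with the step in both tissues (Ctsl in fetal liver with an adjusted p of 0.00112, and 0.0724 with arrays averaged), as did Lgmn (-0.63 ± 0.11 in fetal liver and -0.78 ± 0.11 in bone marrow). Cnpy3, a chaperone for TLR folding, fell by 0.49 ± 0.13 on the log2 scale in fetal liver (adjusted p = 0.0105; 0.103 with arrays averaged) and 0.55 ± 0.13 in bone marrow (adjusted p = 0.00311), whereas Hsp90b1 (gp96), another, passed in none of the 4 comparisons, with changes from -0.28 to 0.17.

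**Figure D4:**
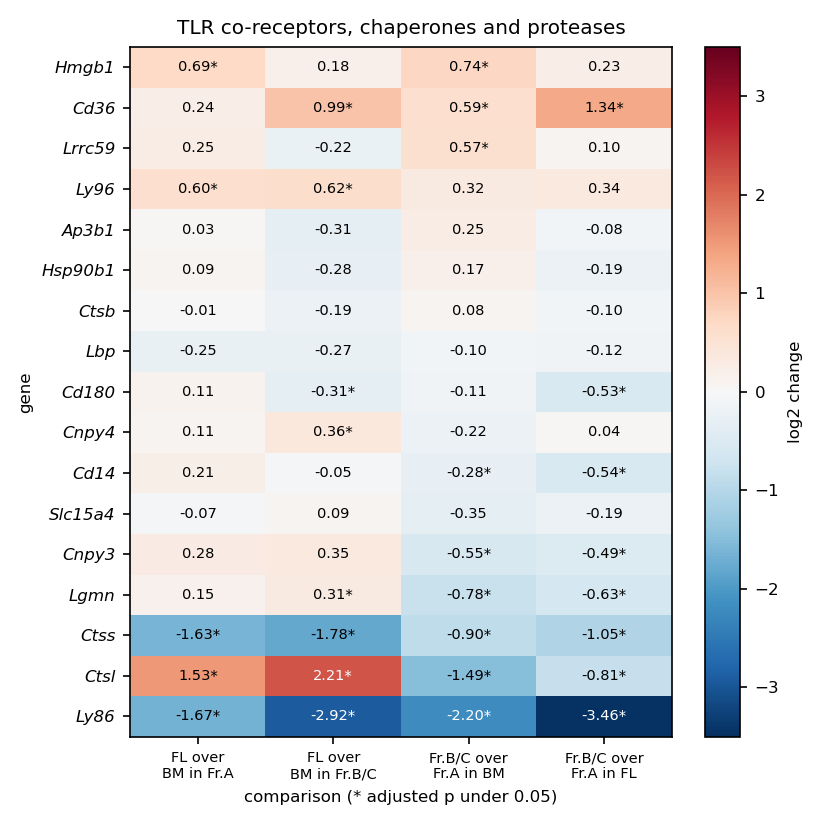
Log2 change of 17 TLR co-receptors, chaperones, proteases and other associated genes (y axis) in 4 comparisons (x axis). Colour and printed value give the change, and an asterisk marks an adjusted p under 0.05. Ly86 fell in all 4, by up to 3.46 on the log2 scale, and Ctsl and Ctss moved in opposite directions between tissues.

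Further down the pathway, 2 of 19 adaptors and kinases were higher and 4 lower in Fr.B/C than in Fr.A of fetal liver, and 2 higher and 5 lower in bone marrow. Over all genes the fetal step raised 10% and lowered 12.7%, and the adult step raised 13.5% and lowered 18.9%. Irak1, which Irak4 phosphorylates, fell by 0.73 ± 0.16 on the log2 scale in fetal liver (adjusted p = 0.00269; 0.0731 with arrays averaged) and by 1.25 ± 0.16 in bone marrow (adjusted p = 1.56e-05). Traf6, the ubiquitin ligase that follows, rose by 0.45 ± 0.13 (adjusted p = 0.0187) and 0.65 ± 0.13 (adjusted p = 0.00104), and both were lost with arrays averaged (adjusted p = 0.222 and 0.0576). Of 11 transcription factors, 3 rose and 1 fell in the fetal step, and 4 rose and 2 fell in the adult step. Fetal liver was lower than bone marrow for 7 of the 11 and higher for 1, in Fr.B/C (14.6% and 13.9% of all genes) and likewise in Fr.A (17.4% and 12.2%). Irf7, the factor that Tlr7 and Tlr9 use for type I interferon, was lower in fetal liver by -1.36 ± 0.16 in Fr.B/C and -1.40 ± 0.16 in Fr.A, and Irf5 by -1.29 ± 0.12 and -0.65 ± 0.12. The Irf7 differences were -2.66 and -2.25 on the authors' deposited table. Irf8, which the list of plasmacytoid dendritic cell markers also holds, was lower by -1.81 ± 0.08 and -0.70 ± 0.08. Relb, an NF-kB subunit, rose with the step by 1.15 ± 0.13 in fetal liver and 1.13 ± 0.13 in bone marrow.

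Inhibitors of TLR signalling were described from a list of 15. The fetal step raised 4 and lowered 3 (10% and 12.7% of all genes), and the adult step raised 5 and lowered 3 (13.5% and 18.9%). Tnfaip3 (A20), an NF-kB target that ends TLR signalling, rose by 1.80 ± 0.12 in fetal liver (adjusted p = 1.64e-08) and 2.54 ± 0.12 in bone marrow (adjusted p = 2.7e-10). Irak3, which blocks the Myd88 complex, was lower in fetal liver by -1.81 ± 0.09 in Fr.B/C and -1.14 ± 0.09 in Fr.A, and Nfkbia, the inhibitor of NF-kB, by -0.96 ± 0.11 and -1.36 ± 0.11. On the authors' deposited table the Irak3 differences were -2.66 and -2.22. Of the 10 response genes tested, fetal liver was lower for 3 and higher for 2 in Fr.B/C, and lower for 3 and higher for 1 in Fr.A. Of all genes, 14.6% were lower and 13.9% higher in Fr.B/C, and 17.4% lower and 12.2% higher in Fr.A. Receptors of the IL-1 family, most of which also use Myd88, were lower in fetal liver for 2 of 6 in Fr.B/C (14.6% of all genes). In Fr.A 4 of 6 were lower (17.4%), Il1r2 among them. Il1r1 was lower by -1.99 ± 0.15 in Fr.B/C and -1.20 ± 0.15 in Fr.A (-3.30 and -1.70 on the authors' deposited table). Il18r1, the IL-18 receptor chain that NK cells also express, was lower in fetal liver Fr.A by -2.96 ± 0.16 (adjusted p = 3.65e-09). That difference was -5.00 on the authors' deposited table. Il18r1 was not well above background on any Fr.B/C array. Of 10 other sensors of nucleic acid or peptidoglycan, 6 were lower in fetal liver in each fraction (14.6% of all genes in Fr.B/C and 17.4% in Fr.A). Among them were Dhx58 (-2.35 ± 0.13 in Fr.B/C and -2.05 ± 0.13 in Fr.A) and Nod1 (-0.77 ± 0.09 and -1.84 ± 0.09). Of the TLRs outside the set, Tlr5, the flagellin receptor, was tested and passed in no comparison. Its changes between 2 groups were 0.12 to 0.23, or 0.36 to 0.57 with an offset of 0, and its steps differed by -0.02.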

How the data were processed

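The deposited scanner files hold, per the file headers, a mean and a background intensity for each dye and spot, and quality flags, written by Feature Extraction 8.5.1.1. The authors also deposited a table of log2 ratios of sample over reference. The submitters' processing notes name limma, without its role, and the steps behind that table are not stated. It correlated with the ratios used here at r = 0.930 to 0.951.

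Here the background was corrected by normexp with an offset of 50, arrays were normalized by loess in limma 3.58.1 (R 4.3.3), and ratios were turned to sample over reference. Control and outlier spots were left out, and saturated spots kept. A probe was kept if well above background in the sample channel on at least 3 of 4 arrays of a group and usable on 12 arrays (27526 of 41174), and the brightest kept probe stood for a gene. Names came from RefSeq accessions (22207 probes), or from symbols (659) or synonyms (528) in descriptions, and 17773 probes stayed unnamed.

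One limma model with 4 group means and a dye term (sample in Cy5 on arrays 1 and 3, in Cy3 on 2 and 4) was fitted to 16 arrays (11 residual degrees of freedom), and p-values were adjusted by Benjamini-Hochberg over 22401 genes or transcripts. Errors of changes are SE. The number of arrays limits the precision. The 2.78-fold of Tlr7 sets its mean sample channel in fetal liver Fr.A against that in fetal liver Fr.B/C. The lowest signal of probes well above background was the floor for the dim group, and lay no higher than the Tlr7 signal.

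Same-numbered Fr.A and Fr.B/C samples come from the same sort per the labels, and their residuals correlated at 0.25 to 0.52. Those of other-numbered Fr.A and Fr.B/C arrays of a tissue correlated at -0.46 to 0.42, so the ranges overlapped. The p-values of the main fit treat all arrays as independent. That fit leaves out the pairing by sort and the shared deviations of arrays within a group. Its p-values may therefore misstate the spread between sorts. The members and lists were chosen with earlier results of these data known. Named beside the members were up to 4 genes of a list with the smallest adjusted p, and any TLR or co-receptor. For each member up to 3 genes most like it were also named. Siglech was named outside these rules. The fit was tested on simulated data with independent noise on each array. That simulation leaves out the shared deviations of the real arrays, so it cannot show their effect on the calls.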

Additional observations from a re-analysis of the deposited data

Results flagged for a closer look

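The step from Fr.A to Fr.B/C differed between the tissues in 3 genes by the test of that difference (fetal liver step minus bone marrow step, log2): Tlr1 at -0.64, Tlr2 at -0.81 and Unc93b1 at -0.63. Over all genes 4.54% had a positive and 2.98% a negative difference that passed. All 3 missed the threshold once arrays 1 and 2 and arrays 3 and 4 were averaged, and for Tlr1 the call also rested on single arrays.

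One array stood apart from its group in 1 of 36 combinations of gene and group: Myd88 on fetal liver Fr.A array 4, at -0.16, where the other 3 arrays lay between 0.01 and 0.02. Chance sets about 1 in 20 such groups apart.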

How the results depend on the processing

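Of 45 results (9 genes in 5 comparisons) 23 passed. All 23 kept their direction in every alternative, and 10 also stayed past the threshold in all of them. The count of genes that passed, main value first, moved as follows. In the tissue comparison of Fr.A it was 6, and became 2 with arrays averaged, 2 with a set term added and 1 on the Cy3 arrays. In that of Fr.B/C it was 4, and 2 on the Cy5 arrays. In the bone marrow step it was 7, and 4 on the Cy5 arrays, on the Cy3 arrays and with median centring. The difference between steps passed for 3, for 1 with an offset of 0, for 1 with median centring, and for 0 with arrays averaged, with a set term and on the arrays of either dye. In those 4 fits limma called 47, 252, 35 and 11 of all genes, and at an unadjusted p under 0.05 it called 4, 4, 3 and 2 of the 9. Averaging or taking 1 dye leaves fewer values to fit.

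Leaving out 1 array gave 4 to 6, 3 to 5, 5 to 7, 3 and 2 to 3 genes in the order of the comparisons. The replicate block changed the call of Tlr7 in the difference between steps (adjusted p = 0.0156) and, as a random block, of Myd88 in the bone marrow step (adjusted p = 0.0342), and no other call of a member. Median centring lowered the share of all calls that were higher in fetal liver from 41.2% to 22.5% in Fr.A and from 48.7% to 20.4% in Fr.B/C, and in the fetal step from 44.1% to 31.7%. Scaling by Aquantile leaves ratios as they are. Scan date as a fixed block was added after seeing the data and could not be fitted to the tissue comparisons. Dim probes limit Tlr3, Tlr7 in Fr.B/C and the second Irak4 probe.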
